A study of Komagataella pastoris with 3 samples.

Results

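Messenger RNA of 4 enzyme genes was followed through the late culture of Pichia pastoris GS115. These genes let a yeast cell build sugar from smaller carbon compounds. GS115 is a methylotrophic yeast strain now usually classified as Komagataella phaffii. With earlier results of these data known, the genes were chosen by locus tag as 4 of the 5040 genes of the table. They were PAS_chr1-4_0338 (ICL1, isocitrate lyase), PAS_chr4_0191 (MLS1, malate synthase), PAS_FragB_0061 (PCK1, phosphoenolpyruvate carboxykinase) and PAS_chr3_0868 (FBP1, fructose bisphosphatase). The enzyme names came with that choice of tags. The table itself lists tags only, and the names were not checked against a sequence. By their tags, ICL1, MLS1 and FBP1 lie on chromosomes 1, 4 and 3, and PCK1 on a genome fragment called B.

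GS115 cells, described as wild type, were grown by shaking in YPD and harvested after 24, 36 or 48 h. YPD supplies yeast extract and peptone along with glucose as the sugar. Each time point had 1 RNA-seq library, with no other treatment, and the glucose left in the medium at each time is not given in the sources used here. Levels are given as FPKM, a count of sequenced fragments per gene divided by the length of the gene and by the size of the library, which lets levels of different genes be set side by side. With no replicates, no value has an error between cultures, no test across samples was possible, and every difference is one between single libraries. The sequencing depth is unknown. FPKM are relative values, so a change in the total messenger RNA of a cell cannot be seen in them.

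As background, the glyoxylate cycle is a shortened form of the citric acid cycle that skips the steps in which carbon is lost as carbon dioxide. Isocitrate lyase splits isocitrate into succinate and glyoxylate, and malate synthase joins glyoxylate with an acetyl unit to give malate, so that acetate, ethanol or fatty acids can serve as the source of cell carbon. Gluconeogenesis then turns the acids into sugar: phosphoenolpyruvate carboxykinase makes phosphoenolpyruvate from oxaloacetate, and fructose bisphosphatase removes a phosphate near the end of the path, where it runs against a step of glycolysis by a reaction of its own. In Saccharomyces cerevisiae the genes of all these enzymes are repressed by glucose and expressed on non-sugar carbon.

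All 4 genes were higher at 36 h than at 24 h, but they parted in the next interval. ICL1 and MLS1 were several-fold higher again at 48 h, PCK1 stayed near its 36 h level, and FBP1 was back near its 24 h level. By the 2-fold rule described below, ICL1 and MLS1 thus had the same calls in both intervals, while PCK1 and FBP1 differed in the second.

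**Figure D1:**
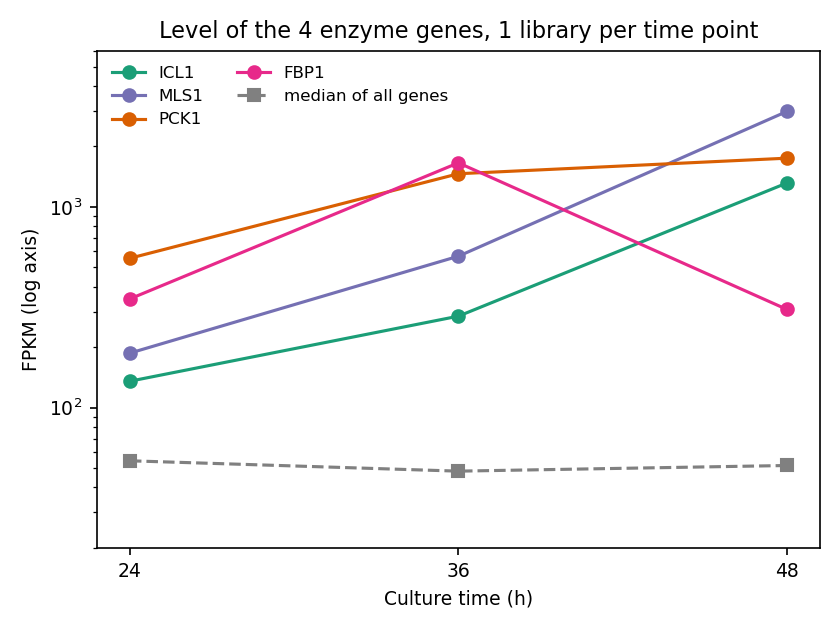
FPKM (log axis) of ICL1, MLS1, PCK1 and FBP1 against culture time in h, with the median of all 5040 genes as a dashed grey line; each point is 1 library. ICL1 and MLS1 climb at each step to 1315 and 2990 FPKM at 48 h, PCK1 levels off between 1463 and 1749 FPKM, and FBP1 peaks at 1658 FPKM at 36 h.

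ICL1, the enzyme that opens the glyoxylate cycle, had 135 FPKM after 24 h, 285 FPKM after 36 h and 1315 FPKM after 48 h. It was the least abundant of the 4 genes at 24 and 36 h. Its place among all genes of the table, counted from the highest level, was 1075 after 24 h, 514 after 36 h and 73 after 48 h. The level at 36 h was 2.11 times that at 24 h, close to the 2-fold limit used here, and the level at 48 h was 4.61 times that at 36 h. On the log2(FPKM + 1) scale these changes were 1.07 and 2.20, and 3.27 for 48 h against 24 h. Of this log2 difference, 32.7% lay in the first of the 2 intervals, which were 12 h each.

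MLS1, whose enzyme uses the glyoxylate that isocitrate lyase makes, had 187 FPKM after 24 h, 568 FPKM after 36 h and 2990 FPKM after 48 h. At 48 h it was the most abundant of the 4 and ranked 28 among all genes of that library, against 737 at 24 h. It had the largest change of the 4 genes over the whole course. Its level at 48 h was 16.0 times that at 24 h, a log2 change of 3.99 that only 71 of the 5028 genes examined exceeded. The first interval gave a log2 change of 1.60 and the second 2.39, so that 40.0% of the whole difference lay in the first.

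PCK1, whose enzyme starts gluconeogenesis from oxaloacetate, had 555 FPKM after 24 h, 1463 FPKM after 36 h and 1749 FPKM after 48 h. It was the most abundant of the 4 at 24 h, where it already stood at 10.2 times the median gene of the table. Its log2 change was 1.40 in the first interval and 0.26 in the second, which is within 2-fold. The first interval held 84.4% of its log2 change of 1.65 for 48 h against 24 h, in contrast to ICL1 and MLS1.

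FBP1, whose enzyme acts near the end of gluconeogenesis, had 348 FPKM after 24 h, 1658 FPKM after 36 h and 308 FPKM after 48 h. It was the most abundant of the 4 genes at 36 h and the least abundant at 48 h. Its log2 change was 2.25 for 36 h against 24 h, the largest of the 4 in that interval, and -2.42 for 48 h against 36 h. In the second interval 89 of 5028 genes had a more negative change. For 48 h against 24 h the change was -0.17, within 2-fold, and its sign depended on how the libraries were scaled: it was 0.06 with median-of-ratios scaling, 0.02 with equal totals and 0.08 with trimmed-mean scaling.

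Counts over the 4 genes were read against those over the 5028 genes that reached 1 FPKM in any library. Because the 4 genes were chosen with earlier results of these data known, the shares of all genes serve as background only. A gene was counted as higher or lower when its log2(FPKM + 1) differed by at least 1, a 2-fold rule of size and not a test. For 36 h against 24 h, 4 of the 4 genes were higher, against 9.47% of all genes, and 0 were lower, against 19.4% of all genes. For 48 h against 36 h, 2 of 4 were higher (ICL1 and MLS1), against 13.5% of all genes, and 1 was lower (FBP1), against 13.0% of all genes. For 48 h against 24 h, 3 of 4 were higher, against 18.2% of all genes, and 0 were lower, against 28.0% of all genes. The calls of the 4 genes were the same under each of the 3 scalings tried, but the split of all genes was not. Of the genes called either way, 39.3% were higher for 48 h against 24 h as deposited, 49.5% with median-of-ratios scaling and 50.7% with trimmed-mean scaling, which turned an excess of lower genes (914 higher, 1409 lower) into a slight excess of higher ones (1141 higher, 1110 lower). For 36 h against 24 h the share was 32.9% as deposited and 47.0% with median-of-ratios scaling.

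At 4-fold or more the genes separated further. FBP1 alone of the 4 was this much higher at 36 h than at 24 h, as were 2.61% of all genes. ICL1 and MLS1 were this much higher at 48 h than at 36 h, as were 2.82% of all genes, while FBP1 was this much lower, as were 2.96%. For 48 h against 24 h, ICL1 and MLS1 again passed the 4-fold limit on the higher side, a size reached by 6.78% of all genes.

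**Figure D2:**
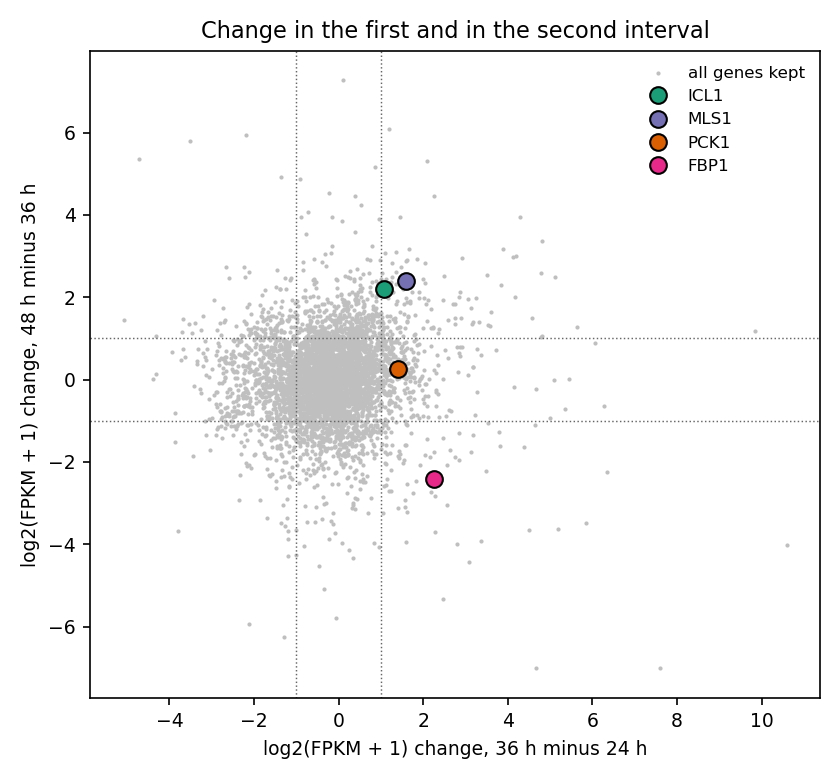
Each point is a gene: the x axis gives its log2(FPKM + 1) at 36 h minus that at 24 h, the y axis that at 48 h minus that at 36 h, dotted lines mark 2-fold, and grey points are the 5028 genes examined. ICL1 (1.07 and 2.20) and MLS1 (1.60 and 2.39) both lie at the upper right. PCK1 lies to the right at 1.40 and 0.26, and FBP1 at the lower right at 2.25 and -2.42.

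The median log2 change of the 4 genes was 1.50 for 36 h against 24 h, where the median of all genes was -0.21. It was 1.23 for 48 h against 36 h, where all genes had 0.03. This median lies between 0.26 for PCK1 and 2.20 for ICL1, while FBP1 was negative, and it describes no single gene. For 48 h against 24 h the median of the 4 was 2.46, against -0.25 for all genes. It too describes no single gene, lying between 1.65 for PCK1 and 3.27 for ICL1, while FBP1 was within 2-fold. Since scaling moved the median of all genes by more than 0.1, the changes were also taken relative to that median. For 36 h against 24 h they then became 1.28 for ICL1, 1.81 for MLS1, 1.60 for PCK1 and 2.46 for FBP1.

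The order of the 4 levels changed between libraries. At 24 h it was PCK1, FBP1, MLS1 and ICL1 from high to low, at 36 h FBP1, PCK1, MLS1 and ICL1, and at 48 h MLS1, PCK1, ICL1 and FBP1. Whether neighbours in these orders differ beyond the spread between cultures cannot be told from 1 library each. By ratio, the closest neighbours were PCK1 and FBP1 at 36 h, with 1463 and 1658 FPKM.

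Ratios between genes of 1 library do not depend on how that library is scaled. ICL1 stood at 0.72 times the FPKM of MLS1 at 24 h, 0.50 times at 36 h and 0.44 times at 48 h, so these partners of the glyoxylate cycle kept their order and their ratio changed by less than 2-fold. PCK1 stood at 1.59 times the FPKM of FBP1 at 24 h, 0.88 times at 36 h and 5.67 times at 48 h. MLS1 stood at 0.54 times the FPKM of FBP1 at 24 h, 0.34 times at 36 h and 9.70 times at 48 h, the ratio that changed most in the second interval among the 3 ratios plotted.

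**Figure D3:**
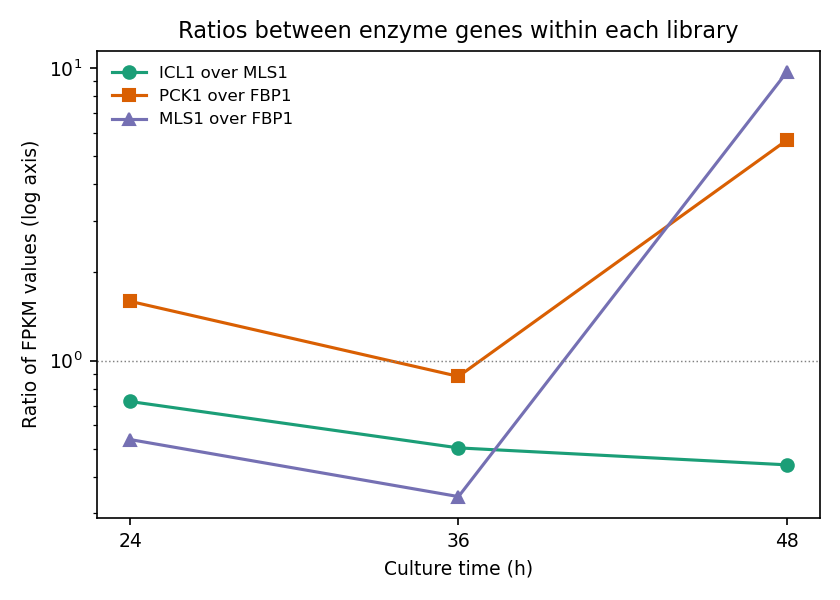
Ratio of FPKM values within each library (log axis) against culture time in h, for ICL1 over MLS1, PCK1 over FBP1 and MLS1 over FBP1, with the dotted line at equal levels. The ratio of ICL1 to MLS1 moves between 0.72 and 0.44, whereas the ratios over FBP1 reach 5.67 and 9.70 at 48 h.

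Summed in pairs, ICL1 and MLS1 had 322 FPKM after 24 h, 853 FPKM after 36 h and 4306 FPKM after 48 h. PCK1 and FBP1 together had 903 FPKM after 24 h, 3121 FPKM after 36 h and 2057 FPKM after 48 h. The glyoxylate pair therefore made up 26.3% of the summed level of the 4 genes after 24 h, 21.5% after 36 h and 67.7% after 48 h. Within the gluconeogenesis pair only FBP1 passed the 2-fold limit after 36 h. FBP1 fell from 1658 FPKM to 308 FPKM at 48 h, while PCK1 stayed within 2-fold, with 1463 FPKM and then 1749 FPKM. Together the 4 genes held 0.14% of the total FPKM of the library after 24 h, 0.51% after 36 h and 0.84% after 48 h. Total FPKM itself ranged from 760684 to 871921 over the 3 libraries and was lowest at 48 h.

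**Figure D4:**
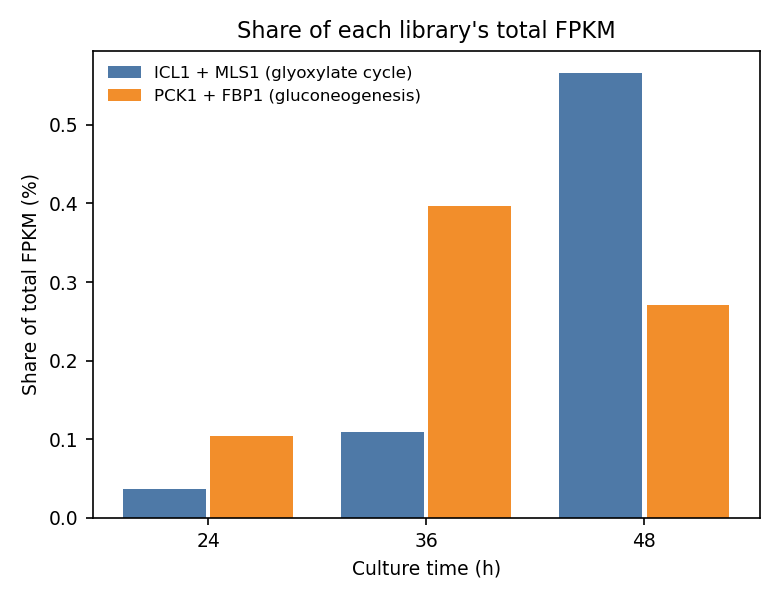
Share of the library's total FPKM in percent, against culture time in h, for ICL1 plus MLS1 (blue) and PCK1 plus FBP1 (orange), 1 library per time point. The gluconeogenesis pair is higher at 24 h (0.104% against 0.037%) and at 36 h (0.397% against 0.109%), and the glyoxylate pair at 48 h (0.566% against 0.270%).

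Likeness between genes was measured as the distance between their 2 interval changes on the log2(FPKM + 1) scale, over the 3 libraries. ICL1 and MLS1 were 0.56 apart, just outside the distance of 0.5 taken here as close. Counted from ICL1, MLS1 was the gene in place 39 of the 5027 others, and counted from MLS1, ICL1 was in place 31, so many other genes were closer to each. PCK1 was 1.97 from ICL1 and 2.15 from MLS1. FBP1 was farther from the glyoxylate genes, at 4.77 from ICL1 and 4.86 from MLS1, and was 2.81 from PCK1. With only 3 libraries, likeness by this measure describes a shape of 2 steps and no more.

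More genes had a profile close to that of PCK1 than to that of FBP1. Within a distance of 0.5 lay 119 of the 5027 other genes for PCK1, 32 for ICL1, 21 for MLS1 and 5 for FBP1. These counts also depend on how many genes of the table had changes of such sizes, so they describe no trait of the enzyme genes alone. The tag nearest to ICL1 was PAS_chr4_0116, at a distance of 0.13, with 26.4 FPKM after 24 h, 62.1 FPKM after 36 h and 293 FPKM after 48 h. The tag nearest to MLS1 was PAS_chr4_0602, at 0.07, with 13.9 FPKM after 24 h, 41.9 FPKM after 36 h and 224 FPKM after 48 h. The tag nearest to FBP1 was PAS_chr1-1_0003, at 0.30, with 73.5 FPKM after 24 h, 340 FPKM after 36 h and 50.7 FPKM after 48 h. At 48 h all 3 tags were well below the enzyme gene they resembled, MLS1 for example standing at 13.4 times the FPKM of its nearest tag.

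Each of the 4 genes was also placed among the genes with the same pair of calls in both intervals. ICL1 and MLS1 were among 130 genes that passed the 2-fold limit upwards in each interval, 2.59% of those examined, and by level at 48 h they held places 31 and 17 among them. FBP1 was among 81 genes that were higher at 36 h and lower again at 48 h, and held place 12 by its level at 36 h. PCK1 was among 265 genes that were higher at 36 h and then within 2-fold, with place 14 at 48 h. All 4 enzyme genes were thus above the median level of their class, which for example was 459 FPKM at 48 h for genes higher in each interval.

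The genes with adjoining locus tags were looked at for their values. Of 6 tags with values that were 1 number below or above an enzyme gene, 0 had the same pair of interval calls as that gene. The pairs of calls in question were carried by only 1.61% to 5.27% of all genes, so a count of 0 in 6 says nothing particular about adjoining genes. For 48 h against 24 h, 1 of the 6 was higher and 2 were lower, against 18.2% and 28.0% of all genes, and these shares are close to that background. The tag after ICL1 was abundant throughout, with 722 FPKM after 24 h, 898 FPKM after 36 h and 1235 FPKM after 48 h, and changed less than 2-fold. Next to MLS1, the tag before it had 26.0 FPKM after 24 h, 13.5 FPKM after 36 h and 11.6 FPKM after 48 h. Its log2 change of -1.09 for 48 h against 24 h was near the limit and lay between -0.92 and -0.86 with the other scalings, within 2-fold. The tag after MLS1 had 306, 232 and 225 FPKM after the same times. The tag after PCK1 was low, with 14.8 FPKM after 24 h, 15.5 FPKM after 36 h and 21.4 FPKM after 48 h.

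Around FBP1 the adjoining genes differed from it and from each other. The tag before it had 78.1 FPKM after 24 h, 178 FPKM after 36 h and 896 FPKM after 48 h. Like FBP1, this tag passed the 2-fold limit upwards in the first interval, with a log2 change of 1.18. In the second interval it was higher again, while FBP1 was lower. The tag after FBP1 had 78.7 FPKM after 24 h, 60.6 FPKM after 36 h and 26.5 FPKM after 48 h. The strandedness of counting is not given in the sources used here, so reads from overlapping transcripts of adjoining genes, if any, could not be told apart.

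**Figure D5:**
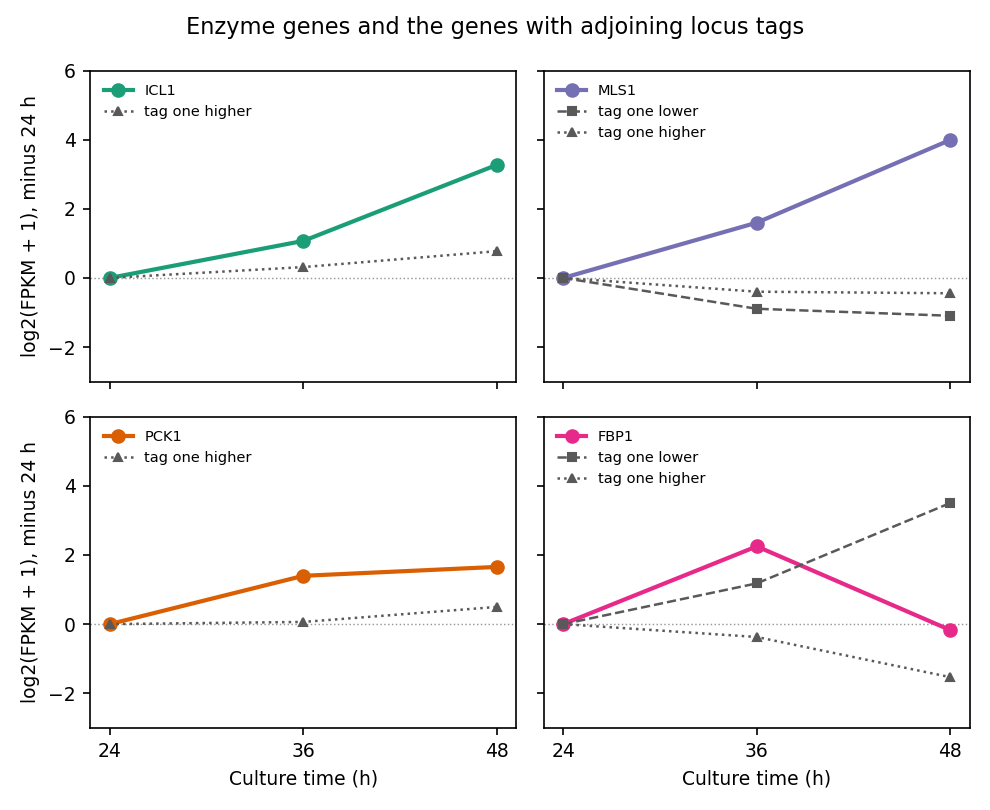
Log2(FPKM + 1) minus its value at 24 h against culture time in h, for each enzyme gene (coloured line) and for the genes with the tag 1 number lower (dashed) and 1 number higher (dotted), where the table has a value. The tag before FBP1 climbs to 3.50 at 48 h while FBP1 itself is at -0.17, a value whose sign changes with the scaling of the libraries.

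Other genes of these pathways, such as those of citrate synthase, aconitase and malate dehydrogenase or the steps shared by glycolysis and gluconeogenesis, could not be placed among the tags. Of 61 gene symbols listed for this purpose, 45 occurred in the reference table used, which describes Komagataella pastoris, a related species, but 0 of the 5040 tags matched that table. No count of higher or lower genes is therefore given for those lists.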

How the data were processed

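The authors deposited 1 table with an FPKM value per gene and library, per the file headers. Per the labels' protocols, RNA came from bead-beaten cells and libraries from a VAHTS Universal V6 kit. CASAVA and HISAT2 2.1.0 are listed in the submitters' processing notes. No source used here gives the program behind the FPKM values, the genome build, the annotation or any filter. Columns were matched to times by the codes in the sample titles.

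Low values (under 3 FPKM, 19 to 34 genes a comparison) were searched for steps of whole reads. With the best common factor, 26.5% to 47.4% of the ratios came within 0.2% of a fraction of whole numbers up to 12, so whole reads were not recovered and the depth is unknown.

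Changes are differences of log2(FPKM + 1), which understate those of low genes. A gene was examined if it reached 1 FPKM in any library, which held for 5028 of 5040. The 4 genes and the lists were chosen with earlier results of these data known. Tags named beyond the 4 were the nearest to an enzyme gene in the order ICL1, MLS1, PCK1, FBP1, with at least 10 FPKM in 1 library and no value listed at 0, and at most 2 in each direction of change from 24 to 48 h. The lists covered citrate and malate steps, the citric acid cycle, acetyl unit supply, anaplerosis, glycolysis, regulators and a ubiquitin ligase, and 0 of their 61 symbols could be paired with a tag. Alternatives were pseudocounts of 0.1 and 10, 3 scalings, 2 filters, a 4-fold rule and a smaller distance. The steps were tested on simulated data made from the 24 h library. Their spread was a fixed setting and not measured between cultures, so false calls at the real spread were not tested. For the calls, the planted changes were 4-fold, so calls near the 2-fold limit were not tested. Python 3.11.15, numpy 2.4.6, pandas 2.3.3 and matplotlib 3.10.9 were used.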

Additional observations from a re-analysis of the deposited data

How the results depend on the processing

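All 60 log2 changes of the 4 genes and all 15 of their medians, recomputed with pseudocounts of 0.1 and 10 and with median-of-ratios, equal-totals and trimmed-mean scaling, stayed on the same side of the 2-fold limit. The change nearest to the limit, ICL1 for 36 h against 24 h, ranged from 1.02 to 1.31. FBP1 for 48 h against 24 h ranged from -0.17 to 0.08 and so has no settled sign. Median-of-ratios scaling moved the median change of all genes for 36 h against 24 h to 0.02, in place of -0.21. Under the stricter 4-fold rule, 1 of the 4 genes was higher for 36 h against 24 h in place of 4, and the counts over all genes were 131 higher and 261 lower in that comparison, 142 higher and 149 lower for 48 h against 36 h, and 341 higher and 498 lower for the whole course. The other 47 of 48 counts of the 4 genes and 42 of 48 counts of all genes were within 1.5 times the reported ones, although scaling changed the balance of higher and lower genes. The scalings of the tag before MLS1 were chosen after seeing the data. With a distance of 0.25, 37 genes were close to PCK1, 13 to ICL1, 3 to MLS1 and 0 to FBP1. No paired analysis was possible because no time point had a second library, and none could be left out for the same reason. Every value is limited by this and by the unknown depth.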
